A study of Homo sapiens with 6 samples.

Results

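Clones C1 and C2 of the lung cancer line H358 were compared with each other at a fixed genotype, using all genes of the deposited count table. The comparison rests on 4 of the 6 libraries of the series, 2 from each clone, and on 17129 genes that passed the filter on low counts out of 57445 in the table. H358 is an established line from a human bronchioalveolar carcinoma of the lung, and the cells were grown in RPMI medium with 10% FBS. Both clones are listed with BRMS1v2 A273V/A273V, a variant of BRMS1 on both gene copies, and the parental cells (WT, 2 libraries) carry wild-type BRMS1. Each clone is a single isolate, how it was obtained is not in the labels, and the replicates of a clone carry only the numbers 1 and 2. BRMS1 is a metastasis suppressor that belongs to the SIN3-HDAC complex, a corepressor that removes acetyl groups from histones. A pair of clones with the same listed genotype shows how far expression differs between isolates apart from the variant that they share.

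As background, cells short of amino acids, or with misfolded protein in the endoplasmic reticulum, phosphorylate the initiation factor eIF2, which slows translation and lets the transcription factor ATF4 be made. ATF4 pairs with C/EBP proteins at composite sites and turns on genes for serine and asparagine synthesis, amino acid uptake, tRNA charging and feedback inhibitors of the response. Growing cells also turn on the E2F targets of DNA replication at the start of S phase and the genes of mitosis later in the cycle.

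At most genes the clones differed by less than 2-fold, and the most one-sided group was the ATF4 and amino acid response, which was lower in C2. Of its 22 tested genes, 21 were lower in C2 within replicate number 1 and also within replicate number 2, with a median log2 difference of -1.15 in the first and -0.45 in the second. DNA replication genes were higher in C2 within both numbers, with medians of 0.50 and 0.32. Genes of mitosis differed almost entirely within replicate number 2 (medians 0.12 and 2.08), and genes of cholesterol synthesis likewise (0.04 and 0.75). No gene passed the test of C2 against C1 in edgeR's quasi-likelihood test with Benjamini-Hochberg adjustment over all 17129 genes, which is 0% of genes called, while 61 genes (0.356%) had an unadjusted p under 0.05, 43 of them higher (0.251%) and 18 lower (0.105%). DESeq2 without the replicate number in the model also called 0 genes, with 56 (0.327%) at an unadjusted p under 0.05. With the replicate number in the model, edgeR called 0 genes from all 6 libraries and 51 (0.298%) from the 4 clone libraries. DESeq2 with that number called 20 (0.117%). Tests without the number count the replicate difference as scatter, so their 0 calls do not show that the clones were equal.

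The sequences upstream of 4 genes show what a response element and an E2F site look like in members that hold one; most amino acid response genes did not hold the first. The core of the amino acid response element, written TGATGNAA, was searched on both strands in RefSeq promoter windows of 300 bases (GRCh38.p14), from 250 bases before to 50 after each start. It was found in 3.62% of 35116 windows and in 4.46% of 27305 genes with a window, against 4 of the 18 amino acid response genes with a window (ASNS, CHAC1, SLC3A2 and SLC7A1). An E2F site, written TTTGGCGC or TTTCCCGC, was found in 2.27% of windows and 2.75% of genes, against 15 of 26 replication genes and 0 of 18 amino acid response genes. The stretches below are 100 bases each, 5′ to 3′ on the gene's strand, with the motif matches in capitals. They are from CHAC1 (chr15:40953221-40953320, + strand), ASNS (chr7:97872423-97872522, - strand), TYMS (chr18:657553-657652, + strand) and PCNA (chr20:5126628-5126727, - strand), all upstream of the start.
CHAC1: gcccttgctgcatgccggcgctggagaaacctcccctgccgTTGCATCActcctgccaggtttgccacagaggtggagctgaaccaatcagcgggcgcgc
ASNS: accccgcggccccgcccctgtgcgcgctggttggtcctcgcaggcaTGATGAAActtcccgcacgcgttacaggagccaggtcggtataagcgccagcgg
TYMS: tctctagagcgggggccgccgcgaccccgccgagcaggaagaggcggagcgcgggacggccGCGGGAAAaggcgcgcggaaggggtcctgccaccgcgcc
PCNA: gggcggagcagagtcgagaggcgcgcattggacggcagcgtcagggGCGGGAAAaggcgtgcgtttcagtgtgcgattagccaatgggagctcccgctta
In CHAC1 and ASNS the match starts 209 and 68 bases before the start, and in TYMS and PCNA 39 and 59 bases before it. A match describes the letters only, and binding was not measured.

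The libraries held between 29841005 and 37146270 gene counts in the clones. Replicates of a clone were far less alike than same-numbered libraries of different clones. The chi-square per gene was 119.2 between the C1 replicates and 105.3 between the C2 replicates, against 18.38 between the clones at number 1 and 30.63 at number 2. Among the 4 clone libraries, the first principal component held 75.88% of the variance and separated the replicate numbers. The second held 15.1% and set C1 replicate 2 (-24.91) against C2 replicate 2 (32.28). All 21 core epithelial genes were measured at 1 CPM (counts per 1e6, on library sizes scaled by TMM, the trimmed mean of M values) or more. SCGB1A1 of club cells, PGC of alveolar type 2 cells and INSM1 of neuroendocrine cells were at 0 in all 4. Other members of their lists were expressed. On unscaled library sizes, 3 of 12 club and secretory, 8 of 14 alveolar type 2 and 4 of 16 neuroendocrine markers reached 1 CPM. Because same-numbered libraries varied together, differences are given within each number, and a blocked fit, which takes the number as a block, stands beside the plain one.

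The BRMS1 gene itself measured 26.9 and 30.0 CPM in C1 and 28.6 and 25.2 CPM in C2, so the clones overlapped. NKX2-1, the lung lineage transcription factor, measured 117 and 100 CPM in C1 and 120 and 102 CPM in C2. Their log2 differences were -0.08 ± 0.21 and 0.03 ± 0.39 (estimate ± SE, edgeR), each smaller than its error. Of the 21 SIN3-HDAC genes, 5 were higher and 4 lower in C2 within both numbers, with a median of -0.04, and none reached an unadjusted p of 0.05 in the blocked fit. The scaffold SIN3A had log2 differences of 0.00 and -0.10 at numbers 1 and 2, and the catalytic HDAC1 had 0.07 and 0.37.

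Between clones, a difference of 2-fold or more was rare. Among 12817 genes with a mean log2 CPM of at least 1, the genes at least 2-fold apart in the same direction within both numbers were 2 higher in C2 (0.0156%) and 1 lower (0.00780%). The 2 higher genes were DSEL, which acts on dermatan sulfate, and RAB3B, a GTPase of vesicle release, and the lower one was the clone-named locus RP11-125B21.2. RAB3B measured 2.57 and 1.70 CPM in C1 and 5.44 and 4.02 CPM in C2, so both C2 libraries lay above both C1 libraries. Counted in the same way over 12867 genes, C1 against WT gave 89 higher (0.692%) and 147 lower (1.14%), C2 against WT gave 71 higher (0.552%) and 102 lower (0.793%), and C2 against C1 again gave 2 (0.0155%) and 1 (0.00777%). These comparisons share libraries, so the counts are set side by side without a test.

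Genes switched on in one clone and off in the other were looked for as at least 20 counts in both libraries of one clone and at most 3 in total in the other. There were 0 such genes in either direction between the clones. With a minimum of 5 counts instead, 13 genes were on in C2 and off in C1, and 11 the reverse. The rule with 20 counts gave 21 genes that were on in WT and off in C1, and 24 on in WT and off in C2. It gave 0 in the reverse direction for either clone.

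The size of the clone difference depended on the replicate number. At number 1, 3 genes (0.0234%) were at least 2-fold higher in C2 and 51 (0.398%) at least 2-fold lower. At number 2, 303 genes (2.36%) were higher and 18 (0.140%) lower. The 51 lower genes at number 1 included 14 of the 22 amino acid response genes (14 of 51), and the 303 higher genes at number 2 included all 30 mitosis genes and 10 of the 22 cholesterol genes. Across the 12817 genes the differences at the numbers had a Pearson correlation of 0.0724, a description over genes that share their libraries. The SD over genes was 0.251 at number 1 and 0.380 at number 2.

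**Figure D1:**
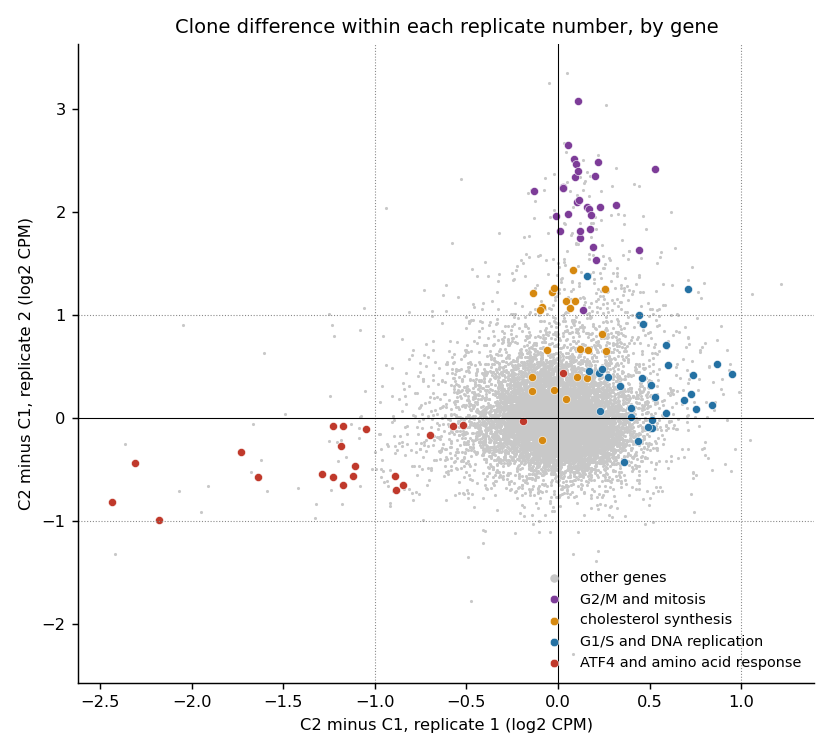
Difference of C2 from C1 in log2 CPM (prior count 2) for each of 12817 genes, with replicate 1 on the horizontal axis and replicate 2 on the vertical axis; grey points are all genes and colours mark 4 gene groups, with dotted lines at 2-fold. The amino acid response genes spread to the left (median -1.15), the mitosis genes upward (median 2.08), and the replication and mitosis genes lie mostly above 0 on both axes (25 and 28 of 30).

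Enzymes of serine synthesis were among the genes furthest apart. PSAT1, the aminotransferase of that pathway, measured 353 and 396 CPM in C1, 78.0 and 200 CPM in C2, and 156 and 293 CPM in WT. Both C2 libraries lay below both C1 libraries, by 4.53-fold at number 1 and 1.98-fold at number 2. Its log2 difference was -1.43 ± 0.50 (SE), with an adjusted p of 1 in edgeR's quasi-likelihood test, 0.453 with the replicate block, 0.760 in the fit of the 4 clone libraries with the block, and 6.53e-07 in DESeq2 with the block. PSPH, the phosphatase that completes serine, measured 55.7 and 55.6 CPM in C1 and 16.7 and 44.4 CPM in C2. PHGDH, which commits the glycolytic intermediate to the pathway, measured 194 and 170 CPM in C1 and 82.9 and 162 CPM in C2, so that the C2 value at number 2 came close to the C1 values. SHMT2, the mitochondrial enzyme that splits serine into glycine and a one-carbon unit, measured 373 and 525 CPM in C1 and 208 and 335 CPM in C2, below both C1 libraries in each. MTHFD2, the next mitochondrial folate enzyme, measured 572 and 461 CPM in C1 and 252 and 383 CPM in C2. These genes were lower at both numbers, with the larger gap at number 1.

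Asparagine, glutathione and gluconeogenic enzymes of the same response followed. ASNS, asparagine synthetase, measured 279 and 226 CPM in C1 and 56.2 and 167 CPM in C2, with log2 differences of -2.31 and -0.43. CHAC1, which degrades glutathione, measured 33.4 and 47.0 CPM in C1 and 6.11 and 26.7 CPM in C2, a gap of 5.41-fold at number 1 and 1.76-fold at number 2. PCK2, the mitochondrial phosphoenolpyruvate carboxykinase, measured 58.7 and 54.0 CPM in C1 and 13.9 and 33.0 CPM in C2. For all 3 genes C2 replicate 1 was the lowest of the 4 clone libraries and the clones did not overlap.

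Regulators of the response were lower in C2 as well. ATF4 mRNA measured 628 and 575 CPM in C1 and 422 and 545 CPM in C2, log2 differences of -0.57 and -0.08. DDIT3 (CHOP), a transcription factor of stress-induced death, measured 41.4 and 52.8 CPM in C1 and 22.4 and 32.6 CPM in C2. CEBPG, a C/EBP partner of ATF4, measured 83.0 and 126 CPM in C1 and 49.0 and 75.4 CPM in C2, almost the same gap at each number (log2 -0.76 and -0.74). TRIB3, a pseudokinase that restrains the response, overlapped between the clones because C2 replicate 2 (106 CPM) stood just above C1 replicate 1 (105 CPM), while its differences within the numbers were -1.17 and -0.65. SESN2, a leucine sensor upstream of mTORC1, measured 52.5 and 56.5 CPM in C1 and 28.3 and 38.3 CPM in C2, with an unadjusted p of 0.0167 and an adjusted p of 1 in edgeR's quasi-likelihood test. VEGFA (-0.19 and -0.03) and ATF5 (0.03 and 0.44) parted the clones little or in the other direction.

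As a group, 17 of the 22 tested genes had both C2 libraries below both C1 libraries, against 7.41% of all genes, and 21 were lower within both numbers, against 23.2%. In the blocked edgeR fit 0 of 22 were called, as were 0 of all genes, and 14 had an unadjusted p under 0.05 in the lower direction, against 1.41% of all genes in that direction and 3.75% in either. A fit of the 4 clone libraries alone with the block, which has 1 residual degree of freedom, called 51 genes (0.298%), 32 lower (0.187%) and 19 higher (0.111%), and 8 of the 32 belong to this list. DESeq2 with the block called 20 genes (0.117%), all lower in C2. Of the genes named here, TRIB3, SHMT2, WARS, SLC7A1, SLC7A5, SLC3A2, SLC6A9, HBEGF and JDP2 were called by both of these fits, and PSAT1, CHAC1 and PCK2 by DESeq2 alone. The list was chosen with earlier results of these data known, so these counts are a description. In bulk RNA, fewer cells with an active response and less RNA per cell cannot be told apart.

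**Figure D2:**
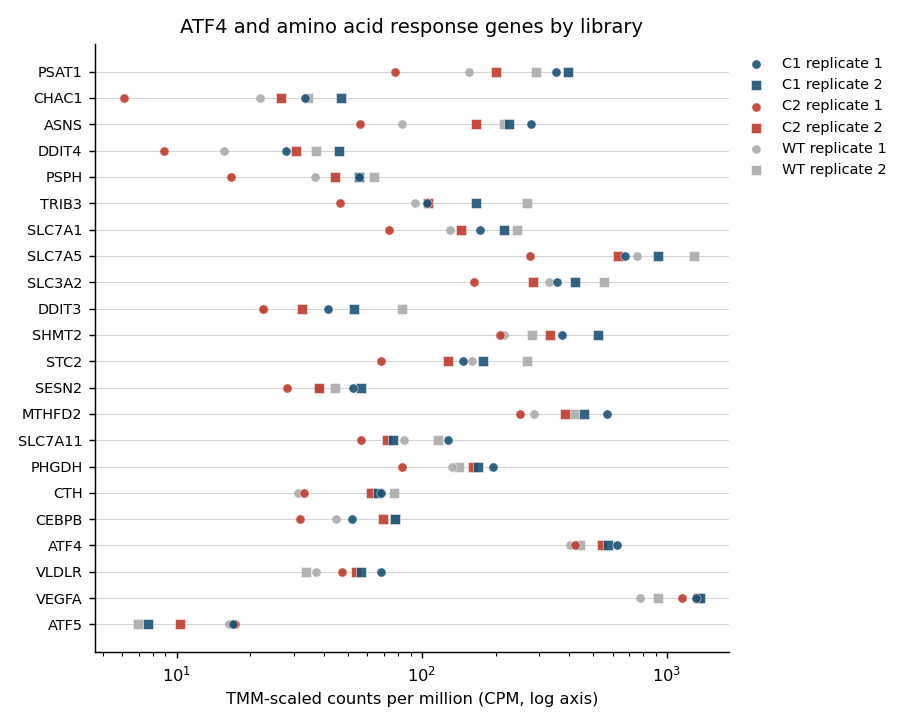
TMM-scaled CPM (log axis) of the 22 tested ATF4 and amino acid response genes in every library; blue marks C1, red C2 and grey WT, with circles for replicate 1 and squares for replicate 2. C2 replicate 1 is the lowest clone library in all genes but ATF5; for PSAT1 it sits at 78.0 CPM against 353 and 396 in C1.

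The WT libraries place this gap. The median of the 22 genes, each centred on its mean over 6 libraries, was 0.34 and 0.41 in C1, -0.80 and 0.05 in C2, and -0.29 and 0.50 in WT (log2, replicates 1 and 2). C2 was below WT at both numbers, while C1 was above WT at number 1 and slightly below it at number 2. From number 1 to number 2 the genes differed by a median of 0.74 in WT and 0.90 in C2 but 0.14 in C1. Without C2 replicate 1 the median difference between the clones was -0.35, and without C2 replicate 2 it was -1.15, against -0.73 with all libraries. The gap therefore kept its direction without either library, but its size ranged from -0.35 to -1.15.

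Amino acid carriers were read from a list added after the values were seen, which shares 4 genes with the response list. SLC7A1, which carries arginine and lysine, measured 172 and 216 CPM in C1 and 73.6 and 145 CPM in C2. SLC7A5 and SLC3A2, the chains of the leucine exchanger LAT1, had log2 differences of -1.29 and -1.12 at number 1 and -0.54 and -0.56 at number 2. SLC6A9, a glycine carrier, had -1.18 and -0.84, and SLC1A5, a glutamine carrier, -0.96 and -0.52, though the clones overlapped for both because replicate 2 was higher in each clone. Of 21 tested carriers, 12 were lower and 2 higher within both numbers, with medians of -0.24 and -0.38. SLC36A4, another carrier of this list, was higher in C2 at both (0.15 and 0.24).

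The synthetases that charge tRNA with amino acids differed by compartment mainly at number 1. Of the 20 cytosolic ones, 12 were lower and 3 higher within both numbers, with medians of -0.65 and -0.11. WARS (tryptophan) measured 321 and 618 CPM in C1 and 170 and 350 CPM in C2, log2 differences of -0.92 and -0.82, and the clones overlapped because replicate 2 was higher in each. IARS (isoleucine) measured 561 and 630 CPM in C1 and 344 and 415 CPM in C2, with no overlap between clones. GARS (glycine), SARS (serine) and TARS (threonine) were lower in the same way, by -1.20, -0.90 and -0.64 at number 1. WARS, IARS, GARS and SARS also belong to the response list, so the cytosolic list is not a separate observation. DARS, KARS, VARS and HARS stayed within 0.15 of 0 at each number. Of the 17 mitochondrial synthetases, 3 were lower and 2 higher within both, with medians of 0.00 and -0.04, and none reached an unadjusted p of 0.05 in the blocked fit. The kinases and phosphatases that set eIF2 phosphorylation also had medians near 0 (0.02 and -0.07 over 10 genes), with PPP1R15A (GADD34), itself a target of the response, at -0.27 and -0.40.

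**Figure D3:**
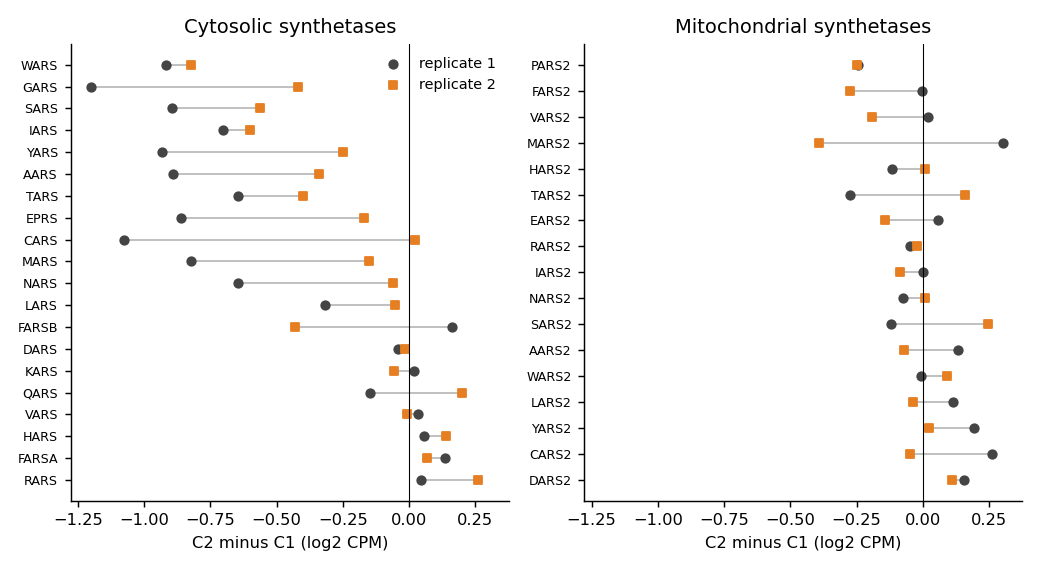
Difference of C2 from C1 in log2 CPM for each cytosolic (left) and mitochondrial (right) tRNA synthetase, with circles for replicate 1 and squares for replicate 2, joined by a line. Cytosolic enzymes such as WARS and GARS lie left of 0 at both numbers, while the mitochondrial enzymes scatter around 0.

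The genes lower in C2 at both numbers were not all of this response. HBEGF, a ligand of the EGF receptor, measured 14.4 and 16.5 CPM in C1 and 5.72 and 8.36 CPM in C2. The gap was 2.51-fold and 1.96-fold, the clones did not overlap, and the adjusted p was 0.418 in edgeR's quasi-likelihood test with the block, 0.00372 in the 4-library fit with the block and 0.0153 in DESeq2 with the block. PID1, an adaptor of the LRP1 receptor that affects insulin signalling, measured 53.4 and 61.8 CPM in C1, 31.1 and 37.7 CPM in C2 and 14.8 and 17.1 CPM in WT, so C2 lay between C1 and WT. IL20RB, a chain of the receptors for interleukins 20 and 24, measured 140 and 141 CPM in C1 and 72.3 and 91.8 CPM in C2. FOS, the immediate early AP-1 subunit, measured 12.4 and 16.8 CPM in C1 and 7.54 and 10.7 CPM in C2, with log2 differences of -0.72 and -0.65. JDP2, an AP-1 repressor, had -1.95 and -0.91 with overlapping clones, and its adjusted p was 0.738 in edgeR's blocked fit, 0.00654 in the 4-library fit with the block and 0.00582 in DESeq2 with the block. Of the 19 AP-1 genes 7 were lower and 2 higher within both numbers. SULT1E1, the estrogen sulfotransferase, measured 8.51 and 12.8 CPM in C1 and 2.21 and 8.08 CPM in C2, with the larger gap at number 1. FAM129A had log2 differences of -0.90 and -0.71, and ZFP69B had -0.84 and -0.69.

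The 15 genes chosen as highest in C2 at both numbers were mostly of low level and varied in function. CHSY3, a chondroitin synthase, measured 2.88 and 1.94 CPM in C1, 5.05 and 4.89 CPM in C2, and 7.64 and 5.76 CPM in WT. RGS1, a regulator of G protein signalling, measured 2.57 and 1.20 CPM in C1, 4.32 and 3.44 CPM in C2, and 0.70 and 0.40 CPM in WT. KCNS3, a modifier subunit of potassium channels, had 112 and 156 counts in C1 and 154 and 333 counts in C2. FREM2, an extracellular matrix protein, measured 8.54 and 8.69 CPM in C1 and 12.7 and 21.6 CPM in C2, and PTRF (cavin-1 of caveolae) 1.81 and 2.51 CPM in C1 and 2.70 and 7.77 CPM in C2. The fold for these 5 genes lay between 1.48 and 3.05 at either number. CHSY3, KCNS3, FREM2 and PTRF had C2 between C1 and WT in mean level, and RGS1 had both clones above WT. STARD9 had the widest gap at number 2 of the 15 genes chosen in this direction, with log2 differences of 0.62 and 2.00. KCNV1, a modifier subunit of potassium channels, had 0.62 and 1.00, and TEX15 had 0.94 and 0.52. ABCC2, an export pump for conjugated compounds, had 0.70 and 0.69, and PGF, placental growth factor, 0.68 and 0.57. FAM81A (0.66 and 0.84) and FER1L6 (0.53 and 0.63) were similar in size at both numbers.

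The DNA replication genes were higher in C2 by a small amount. Within both numbers 25 of 30 were higher and 0 lower, against 24.7% and 23.2% of all genes, with 13 at an unadjusted p under 0.05 in the blocked fit, against 2.34% of all genes in that direction. MCM10, an initiator of replication, measured 21.1 and 3.14 CPM in C1 and 34.6 and 7.55 CPM in C2, a log2 difference of 0.71 and 1.25. CDC25A, the phosphatase that activates CDK2, measured 17.8 and 7.55 CPM in C1 and 32.5 and 10.9 CPM in C2. TYMS, the enzyme that makes thymidylate, measured 62.7 and 7.08 CPM in C1 and 85.3 and 14.2 CPM in C2. Each of these genes was lower in replicate 2 than in replicate 1 of the same clone by more than the clones differed, so the clones overlapped. Only CCNE1, cyclin E1, had both C2 libraries (6.56 and 3.62 CPM) above both C1 libraries (3.36 and 2.67 CPM). The helicase subunits MCM2 and MCM5 were higher in C2 at number 1 (0.44 and 0.36) and lower at number 2 (-0.22 and -0.43). MCM10, TYMS and GINS1 were the 3 list members called in the 4-library fit with the block, with adjusted p of 0.0129, 0.0379 and 0.0377 in edgeR's quasi-likelihood test. That fit called 19 of all genes (0.111%) higher in C2. None of these 3 genes was called in any other fit, and their adjusted p was 0.0664, 0.258 and 0.297 in DESeq2 with the block.

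The mitosis genes carried the largest gap at number 2. MKI67, the proliferation antigen Ki-67, measured 179 and 10.6 CPM in C1 and 258 and 56.8 CPM in C2. KIF20A, a kinesin of cytokinesis, measured 132 and 4.91 CPM in C1 and 142 and 42.0 CPM in C2. CCNB1, cyclin B1, measured 243 and 21.6 CPM in C1 and 275 and 85.1 CPM in C2, and TOP2A, topoisomerase II alpha, 841 and 104 CPM in C1 and 950 and 370 CPM in C2. Replicate 1 was mostly a little higher in C2, and replicate 2 was low in both clones but much lower in C1. All 30 list members were higher in C2 at number 2 and 28 at number 1, none was called in any fit, and the clones overlapped for all 30. Replicate 2 minus replicate 1 had a median over the genes of -3.73 in C1, -1.78 in C2 and -1.08 in WT on the log2 scale. Without C2 replicate 1 the median of C2 against C1 was -0.72 and without C1 replicate 1 it was 3.20, so its sign depended on the library left out.

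**Figure D4:**
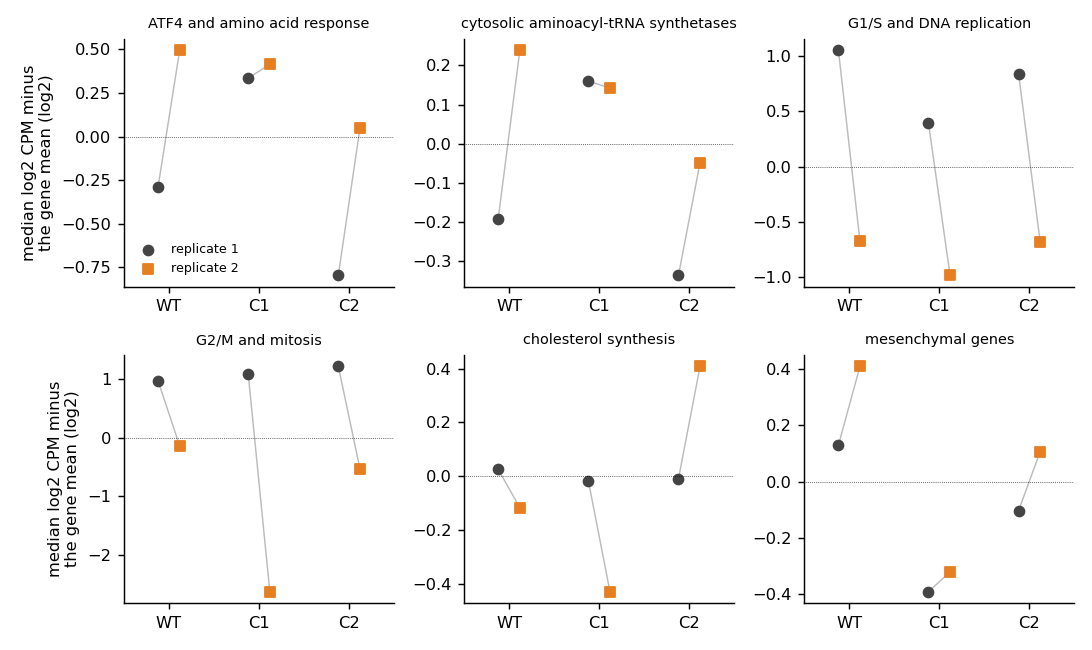
Median over a list's tested members of log2 CPM minus the gene's mean over the 6 libraries, for 6 lists and both replicates of WT, C1 and C2 (circles, replicate 1; squares, replicate 2; a line joins the replicates of a group). The amino acid response sits at -0.80 in C2 replicate 1, and the mitosis genes drop to -2.63 in C1 replicate 2; each panel has its own vertical scale.

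Sterol synthesis followed the pattern of number 2. Of 22 tested cholesterol genes, 12 were higher and 1 lower within both numbers, and 10 had both C2 libraries above both C1 libraries, against 7.21% of all genes. IDI1, the isomerase of the isoprenoid steps, measured 91.8 and 51.0 CPM in C1 and 110 and 122 CPM in C2. SQLE, squalene epoxidase, measured 163 and 113 CPM in C1 and 172 and 304 CPM in C2. FDFT1, squalene synthase, was nearly equal at number 1 (300 and 293 CPM in C1 and C2) and further apart at number 2 (196 and 458 CPM). None of the 22 genes was called in any fit. Beside these values, C1 replicate 2 was the lowest library for this list at -0.43 and C2 replicate 2 the highest at 0.41, and the part of those libraries in the result was not tested.

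Epithelial genes differed by small amounts, while mesenchymal and basal genes differed mainly at number 2. Of 21 core epithelial genes, 12 were lower and 1 higher in C2 within both numbers, with medians of only -0.11 and -0.09. CDH1, E-cadherin, measured 717 and 1044 CPM in C1 and 691 and 738 CPM in C2, and GRHL2, an epithelial transcription factor, 165 and 174 CPM in C1 and 153 and 154 CPM in C2. Of 18 mesenchymal genes, 10 were higher and 1 lower, with medians of 0.17 and 0.58. CDH2, N-cadherin, had 411 and 125 counts in C1 and 542 and 346 counts in C2, and the clones overlapped in CPM. CDH2 was called higher only in the 4-library fit with the block (adjusted p 0.0161, edgeR's quasi-likelihood test). Its adjusted p was 0.774 in edgeR's quasi-likelihood test of all libraries with the block and 0.177 in DESeq2 with the block. SNAI1, a repressor of CDH1, measured 3.25 and 4.08 CPM in C1 and 4.70 and 6.59 CPM in C2, and SPARC, a matrix protein, 2.35 and 1.94 CPM in C1 and 3.54 and 4.21 CPM in C2. VIM, vimentin, was equal at number 1 (43.9 and 43.6 CPM) and higher in C2 at number 2 (20.4 and 33.5 CPM), and ZEB1 had -0.12 and 0.61. All 9 tested genes of squamous and basal cells were higher in C2 at number 2 and 7 were lower at number 1, with medians of -0.10 and 0.89. TP63, the basal cell transcription factor, had 0.02 and 1.36, the calcium-binding S100A2 had -0.01 and 0.89, and the keratin KRT15 had -0.10 and 0.85. The summed CPM of 12 fibroblast markers, here on library sizes not scaled by TMM, was 39.0 and 71.5 in C1 and 44.1 and 72.6 in C2, with THY1 and MFAP5 at 0.

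Some genes moved in opposite directions in the 2 numbers, and 52.0% of all tested genes did so. TXNIP, an arrestin that limits glucose uptake, measured 949 and 447 CPM in C1 and 455 and 937 CPM in C2. It was 2.09-fold lower in C2 at number 1 and 2.10-fold higher at number 2, so the clone means were equal. CP, the copper carrier ceruloplasmin, measured 4.13 and 6.75 CPM in C1 and 0.95 and 12.7 CPM in C2, and TREM1, a receptor of myeloid cells, 13.6 and 12.2 CPM in C1 and 5.72 and 22.9 CPM in C2. In the reverse direction, SYNPO, an actin-binding protein, had 51 and 171 counts in C1 and 70 and 97 counts in C2. For TXNIP the replicates ran in opposite order in the clones, while for CP and TREM1 the spread was mainly between the C2 libraries. CRYM, LEMD1 and HGD were also lower in C2 at number 1 and higher at number 2, by 1.76-fold to 2.38-fold. HGD had its replicates in opposite order in the clones, while CRYM and LEMD1 varied mainly between the C2 libraries. ZBED6CL, DHRS13, VSX1, JPH1 and RASGEF1C were, like SYNPO, higher in C2 at number 1 and lower at number 2, by 1.46-fold to 1.68-fold. The spread was mainly between the C1 libraries for SYNPO and these genes, except JPH1, where it was between the C2 libraries (19.3 and 9.07 CPM).

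No stretch of chromosome stood out. In 425 windows of 50 neighbouring genes on 23 chromosomes, the window median lay between -0.12 and 0.11 at number 1 and between -0.19 and 0.15 at number 2, and 0 windows passed 0.2 in either. Copy number itself was not measured.

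Of 53 gene lists with at least 5 tested members, leaving out the 5 added after the values were seen, 22 had medians of the same sign at both numbers. Only 4 had medians beyond 0.2 at both, which were DNA replication, neuroendocrine and cancer-testis genes on the higher side and the amino acid response on the lower side. The neuroendocrine list had 6 tested members at medians of 0.44 and 0.22, and INSM1 was at 0. ENO2 (0.25 and 0.66), UCHL1 (0.50 and 0.12), CHGB (1.26 and 0.32) and SCG2 (0.47 and 0.32) were higher in C2 within both numbers. Counts in the clones were low for CHGB (8 to 18), SYP (13 to 23) and SCG2 (16 to 43). SYT1, the most abundant tested member, was lower at both (-0.33 and -0.001), and SYP changed sign (0.41 and -0.84). The cancer-testis list had 12 tested members at 0.21 and 0.24. For 39 of the 53 lists the overall median was within 0.2 of 0. The 95% interval of the clone difference lay within 2-fold for 9154 of 12817 genes (71.4%) without the block and for 11914 (93.0%) with it.

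**Figure D5:**
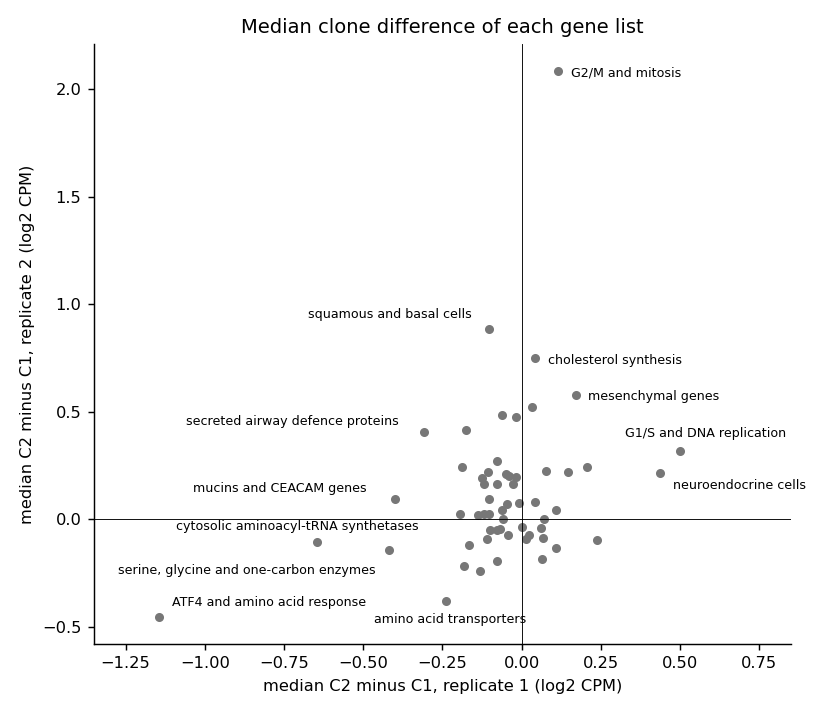
Median difference of C2 from C1 in log2 CPM for each gene list with at least 5 tested members, with replicate 1 on the horizontal axis and replicate 2 on the vertical axis, the 5 lists added after the values were seen included. Most lists lie near 0 on both axes; the amino acid response is at -1.15 and -0.45, and the mitosis genes are at 0.12 and 2.08.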

How the data were processed

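Per the file headers, the authors deposited unnormalised counts of reads for every gene in each library. Of tools, HTSeq 0.5.3, STAR 2.5.0a and cutadapt 1.6 stand in the submitters' processing notes, with hg19 as the build. The strand setting and the annotation release are not given in the sources used here, so overlapping genes on opposite strands, and near-identical copies, cannot be told apart. The 5 HTSeq totals were left out. Titles of the samples gave the groups and replicate numbers. Whether replicates are separate cultures is not in the labels, so p-values reflect only how far these libraries scatter.

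The tools were edgeR 4.0.16, limma 3.58.1 and DESeq2 1.42.0 in R 4.3.3. Genes were kept by filterByExpr and libraries scaled by TMM, and log2 CPM used a prior count of 2. The main model fitted a mean for each of the 3 groups to all 6 libraries and used edgeR's quasi-likelihood test (robust), with Benjamini-Hochberg adjustment over 17129 genes and calls below 0.05. It leaves 3 residual degrees of freedom, and 2 with the replicate number as a block. Deviations of same-numbered libraries from their group means correlated across genes by 0.5839 (WT and C1), 0.634 (WT and C2) and 0.7014 (C1 and C2), and same-numbered libraries were treated as pairs. This pairing comes from the data, not the labels. Alternatives were other scalings, filters, tools and sample sets, and each library left out. The model was tested on simulated data without a replicate effect, so that test does not show how it handles the replicate differences seen here.

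The members, gene lists and rules were chosen with earlier results of these data known, and 5 of the gene lists were added after the values were seen. Genes were named as BRMS1, FOS and NKX2-1 (a further gene of this rule is not reported here); as the 15 highest and 15 lowest by the smaller of the differences within both numbers, without overlap of the clones and with a mean log2 CPM of at least 1; as up to 6 per direction with opposite signs; and as up to 4 per list with members that did not part the clones. Others named were chosen after their values were seen. Gene types and order came from GENCODE 29, matched by stable ID for 97.34% of tested genes.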

Additional observations from a re-analysis of the deposited data

How the results depend on the processing

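The count of called genes stayed at 0 with the replicate block, with the 4 clone libraries alone, under the RLE and upper quartile scalings, under both other filters, in DESeq2 without the block, and with each library left out in turn. It was 51 with the 4 clone libraries and the replicate block, and 20 in DESeq2 with the replicate block. The lowest adjusted p was 0.196 with the replicate block in the 6-library fit. Genes with an unadjusted p under 0.05 numbered 61, 642 with the replicate block, and 27 (without C1 replicate 2) to 449 (without C1 replicate 1) when a library was left out. The count of genes at least 2-fold apart within both numbers was 3, and it remained 3 under both other scalings and with a prior count of 0.5. It was 0 with a mean log2 CPM of at least 3 and 30 (22 higher and 8 lower) with no minimum.

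Of 735 single-gene values under alternatives, 6 changed sign, all with a library left out. The ranges over libraries left out were -0.181 to 0.00012 for BRMS1, -0.0874 to 0.124 for NKX2-1, -0.294 to 0.83 for ATF5 and -1.05 to 0.106 for CEBPB. List medians ranged from -1.15 to -0.347 for the amino acid response, -0.619 to -0.16 for the cytosolic synthetases, 0.18 to 0.686 for cholesterol synthesis and 0.197 to 0.458 for the mesenchymal genes. The replication genes ranged from -0.6 (without C2 replicate 1) to 1.24 (without C1 replicate 1), since a library left out unbalances the replicate numbers. Without the block, the 95% interval of the clone difference lay within 2-fold for 71.4% of the 12817 genes with a mean log2 CPM of at least 1 and reached further for the rest.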

Other observations

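Further groups are not described in the comparison above. Among the carcinoembryonic antigen genes, CEACAM5 had log2 differences of -0.71 and -0.49 and CEACAM6 -0.40 and -0.59. The other members did not share this, with CEACAM1 at -0.10 and 0.64, CEACAM19 at -0.19 and 0.03 and CEACAM20 at 0.06 and 0.72, and MUC1, a membrane mucin, had -0.35 and 0.79. Among ERBB ligands, NRG1 was higher in C2 by 0.72 at both numbers, the opposite of HBEGF, and EGF was higher at number 2 only (1.38). Of 34 interferon-stimulated genes, 3 were higher and 8 lower within both numbers, against 24.7% and 23.2% of all genes, so the lower count was close to the share of all genes. IFI27 was lower at both (-1.02 and -0.49), whereas IFIT1 (-0.05 and 1.40), OAS2 (-0.44 and 1.38) and OASL (-0.33 and 1.22) were higher at number 2 only. Of 20 retinoid genes, 8 were lower and 2 higher, with DHRS3, a retinal reductase, at -0.26 and -0.38.

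Genes of protein folding in the endoplasmic reticulum had medians nearer 0 than the amino acid response. HSPA5 (BiP) had -0.40 and -0.30, HERPUD1 -0.89 and -0.27 and XBP1 -0.68 and -0.17, while PDIA4, HSP90B1 and CALR were no further than 0.24 from 0 at either number. Over 20 such genes the medians were -0.08 and -0.19. The 13 mitochondrially encoded subunits of oxidative phosphorylation had medians of 0.15 and 0.22, with 10 higher and 0 lower within both numbers.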
